A study of Mus musculus with 4 samples.

Results

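Reads of 10 genes of the skeletal muscle programme were examined in bulk RNA-seq of the mouse mesenchymal stem cells C3H10T1/2. The genes were chosen by name as a list of myogenic determination and muscle genes, and all 10 were found among the 54532 gene identifiers counted. They comprise 4 determination factors (Myod1, Myf5, Myf6 and Myog), their cofactor Mef2c, and 5 genes of the contractile apparatus and its scaffold (Acta1, Actc1, Des, Tnnt2 and Myl1). There were 4 libraries. Of these, 2 came from clones 1 and 5 of DNMT3A/B double-knockout cells (DKO), in which both de novo DNA methyltransferases were targeted, 1 from PRDX1MT cells (library name ending in c10), edited by CRISPR at the acceptor site of Prdx1 intron 5 and labelled with the genotype PRDX1-KO, and 1 from unedited cells (WT). All were grown in the same serum-containing medium, with no differentiation step named. Whether DKO cells were made from WT or from PRDX1MT cells is not stated, and each edited line is its own line, so clonal differences and the edit cannot be told apart in a single library. The series was made to study silencing of the Mmachc promoter by transcription running through it, not muscle.

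MyoD (Myod1) and Myf5 commit cells to the muscle lineage, myogenin (Myog) and Mrf4 (Myf6) drive their differentiation, and MEF2 proteins work with all of them on muscle promoters. All 4 factors are basic helix-loop-helix proteins that bind E-boxes as dimers with E proteins. C3H10T1/2 cells are known for turning into muscle, fat and cartilage cells after 5-azacytidine, a drug that blocks DNA methylation in general, and MyoD was found through that conversion. DNMT3A and DNMT3B set new methylation, whereas DNMT1 copies existing methylation at replication, so their loss is not the same treatment as the drug. The comparison of DKO with WT and with PRDX1MT asks whether targeting the de novo enzymes was accompanied by reads of myogenic genes.

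Total counts were 27570136 to 37685798 per library, and levels are given as CPM, counts per 1000000 after TMM scaling. The intervals given for single libraries are 95% limits that cover counting error only. Prdx1, a peroxide-reducing enzyme, had 392 CPM in DKO clone 1, 332 CPM in DKO clone 5, 31.2 CPM in PRDX1MT and 399 CPM in WT. Dnmt3a stood at 31.3, 25.9, 80.9 and 43.7 CPM across those libraries and Dnmt3b at 2.83, 2.03, 3.74 and 3.28 CPM. Reads per gene do not check the DKO label, since a small deletion can abolish an enzyme and leave its transcript. All 14 mesenchymal stem cell markers listed had more than 3 reads in every library. One of them, the surface protein gene Thy1, fell in DKO, with 27 reads in DKO clone 1 and 38 in DKO clone 5, against 1192 in WT (adjusted p = 0.0321 by edgeR), and had 22 in PRDX1MT. The Thy1 call is lost with a filter of 1 CPM in 2 libraries, under which edgeR called 0 genes against WT (490 at an unadjusted p under 0.05).

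Promoters of genes with few or no reads are shown next to those of genes with reads in every library, because methylation acts on the CG dinucleotides they contain. Each window runs from 250 bases before to 50 bases after a RefSeq start (build GRCm38.p6), is written 5′ to 3′ on the strand of the gene, and has every CG in capitals. Windows were found for 8 of the 10 genes (not for Myod1 and Myf6), 11 in all, as some have several starts. Myf5 (chr10:107486085-107486384 (minus strand)), Myog (chr1:134289754-134290053 (plus strand)) and Actc1 (chr2:114052826-114053125 (minus strand)) had at most 4 reads over the 4 libraries:
Myf5: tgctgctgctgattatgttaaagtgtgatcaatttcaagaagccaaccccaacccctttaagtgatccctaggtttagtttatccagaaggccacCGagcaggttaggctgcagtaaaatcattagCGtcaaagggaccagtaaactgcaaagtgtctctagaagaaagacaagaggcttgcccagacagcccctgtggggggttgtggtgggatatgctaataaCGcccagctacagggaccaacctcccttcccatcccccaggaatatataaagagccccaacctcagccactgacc
Myog: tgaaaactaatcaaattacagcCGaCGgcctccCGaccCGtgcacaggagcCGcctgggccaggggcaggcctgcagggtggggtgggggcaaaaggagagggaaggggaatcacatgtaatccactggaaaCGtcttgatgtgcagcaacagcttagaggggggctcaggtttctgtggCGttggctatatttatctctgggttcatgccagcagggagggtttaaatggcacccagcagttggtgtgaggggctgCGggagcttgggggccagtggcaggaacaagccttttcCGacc
Actc1: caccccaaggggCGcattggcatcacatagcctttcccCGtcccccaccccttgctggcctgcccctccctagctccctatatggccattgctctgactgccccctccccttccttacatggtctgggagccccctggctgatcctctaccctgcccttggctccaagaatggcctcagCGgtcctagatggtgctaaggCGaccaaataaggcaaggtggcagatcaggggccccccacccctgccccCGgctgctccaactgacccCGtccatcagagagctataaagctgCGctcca

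Acta1 (chr8:123894726-123895025 (minus strand)), Des (chr1:75360042-75360341 (plus strand)) and the first start of Tnnt2 (chr1:135836084-135836383 (plus strand)) belong to genes with reads in every library:
Acta1: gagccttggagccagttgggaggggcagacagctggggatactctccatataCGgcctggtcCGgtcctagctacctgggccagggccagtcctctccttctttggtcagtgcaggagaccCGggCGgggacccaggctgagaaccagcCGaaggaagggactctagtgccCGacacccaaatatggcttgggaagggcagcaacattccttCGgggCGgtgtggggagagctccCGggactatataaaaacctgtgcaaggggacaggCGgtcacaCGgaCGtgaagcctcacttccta
Des: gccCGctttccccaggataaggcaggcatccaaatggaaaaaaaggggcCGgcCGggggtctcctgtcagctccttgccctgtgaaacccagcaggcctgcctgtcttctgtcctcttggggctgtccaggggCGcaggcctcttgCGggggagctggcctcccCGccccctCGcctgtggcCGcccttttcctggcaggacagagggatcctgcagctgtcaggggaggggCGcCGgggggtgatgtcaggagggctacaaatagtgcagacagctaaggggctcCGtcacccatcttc
Tnnt2: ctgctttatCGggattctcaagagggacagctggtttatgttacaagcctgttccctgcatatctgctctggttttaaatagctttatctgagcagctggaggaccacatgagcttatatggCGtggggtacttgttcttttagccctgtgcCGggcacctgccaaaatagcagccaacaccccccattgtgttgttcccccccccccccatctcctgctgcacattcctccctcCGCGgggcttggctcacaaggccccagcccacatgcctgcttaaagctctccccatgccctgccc

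These windows held 3 CG in Myf5, 9 in Myog, 7 in Actc1, 12 in Acta1, 11 in Des and 5 in Tnnt2. The Myl1 window held 7, the 3 starts of Mef2c held 1, 10 and 4, and the second start of Tnnt2 held 1. Over 32851 windows of all genes the median was 7, and 62.1% of them held no more CG than Acta1, the richest of the 11. By this count Actc1, at 0 reads, and Myf5, Myog and Myl1, with 1 to 4, lay within the range of the genes with reads in every library. The E-box (CANNTG, which reads the same on both strands) occurred 5 times in the first Tnnt2 window and 2 times in the second. It occurred 2 times each in Myog, Acta1 and Des, once in Actc1 and Myl1, and not at all in Myf5. The 3 starts of Mef2c held 2, 0 and 1. At least 1 such match was in 72.3% of all windows, and at least 3 were in 17.6%. A CArG box, the binding sequence of serum response factor, matched once in Acta1 and once in Actc1 and in none of the other 9 windows, against 1.63% of all windows. A match in letters is a description and not a binding site, and DNA methylation itself was not analysed here.

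**Figure D1:**
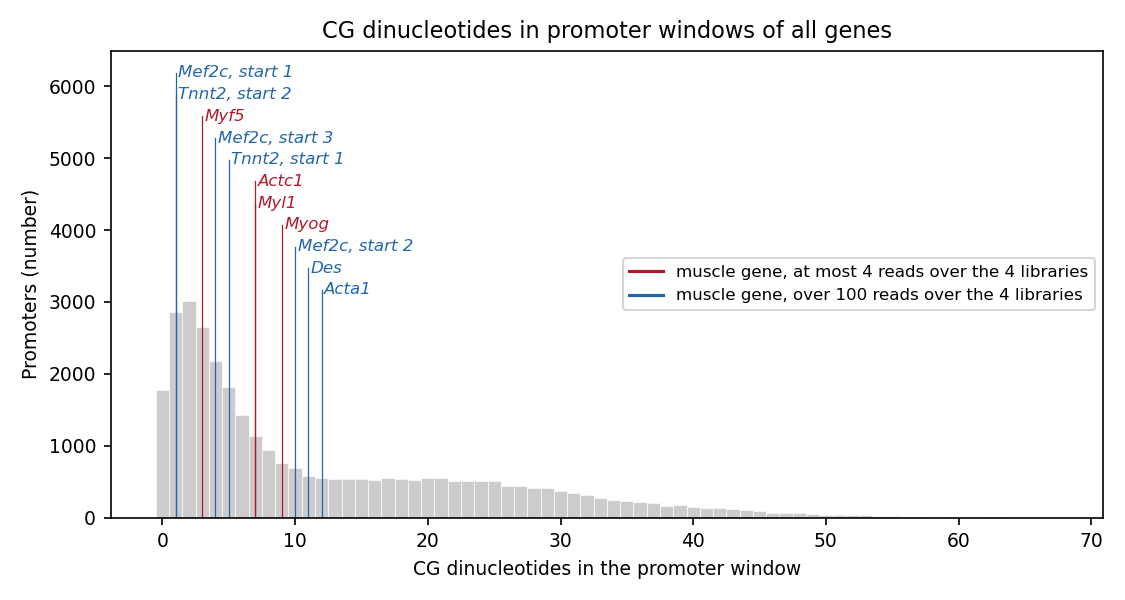
Number of promoter windows (vertical axis) by their count of CG dinucleotides (horizontal axis), for 32851 RefSeq windows of all genes. Coloured lines mark the 11 windows of 8 muscle genes, red for genes with at most 4 reads over the 4 libraries and blue for genes with over 100. Both colours lie between 1 and 12 CG.

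Reads of the determination factors were all but absent in every library, DKO included. Of the 16 values (4 genes in 4 libraries), 14 were 0. The DKO clones together held 5 reads of the 4 factors among 62691204 counts, against 0 in PRDX1MT and 0 in WT. Neither clone had a read of Myod1 (ENSMUSG00000009471, GRCm38/mm10 chromosome 7, 46376474 to 46379099, plus strand, 3 exons), nor did PRDX1MT or WT. A count of 0 allows up to 3 counts, which is 0.0841 CPM in DKO clone 1, 0.109 CPM in DKO clone 5, 0.121 CPM in PRDX1MT and 0.0729 CPM in WT. Over both clones together the limit is 0.0475 CPM, and over all 4 libraries 0.0232 CPM. MyoD transcripts were not detected at this depth.

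Myf5 and Myf6 lie 6718 bp apart on the minus strand of chromosome 10. Myf6 (ENSMUSG00000035923, 107492853 to 107494737) had 0 reads in DKO clone 1, DKO clone 5, PRDX1MT and WT, with the same limits in CPM as Myod1. Myf5 (ENSMUSG00000000435, 107482908 to 107486134) had 0 reads in DKO clone 1 and 4 in DKO clone 5, against 0 in PRDX1MT and 0 in WT. The 4 reads of clone 5 stood at 0.145 CPM (0.0396 to 0.372), 1.99-fold higher than WT when WT is set at 3 counts. Only clone 5 had Myf5 reads, and the interval of that value reaches below the limit of WT. Myog (ENSMUSG00000026459, chromosome 1, 134289989 to 134292548, plus strand), the factor that opens terminal differentiation, had 1 read in DKO clone 1, 0 in DKO clone 5, 0 in PRDX1MT and 0 in WT. The read of clone 1 amounts to 0.0280 CPM (0.00071 to 0.156), under the level of 3 counts. Exons of these 4 genes overlap no exon of another gene on either strand, and none of their 50-base stretches occurs in transcripts of other genes, by exact match.

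Among the contractile genes, Actc1 and Myl1 were as silent. Actc1 (ENSMUSG00000068614, chromosome 2, 114047282 to 114053548, minus strand), the alpha-actin of heart and of developing skeletal muscle, had 0 reads in DKO clone 1, DKO clone 5, PRDX1MT and WT. Myl1 (ENSMUSG00000061816, chromosome 1, 66924295 to 66945404, minus strand), an alkali light chain of fast skeletal myosin, had 1 read in PRDX1MT and 0 in both DKO clones and in WT. For Myl1, 11.7% of its 50-base stretches also occur in the pseudogene Mylf-ps, so some reads could be counted elsewhere. In all, 5 of the 10 genes had at most 3 reads in every library, a state shared by 32.6% of 21995 protein-coding genes.

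A gene was taken as gained in DKO when it had more than 3 reads in both clones and at most 3 in the library it was set against. None of the 6 genes that could meet this rule did so, against WT or against PRDX1MT. Over all genes with at most 3 reads in WT 1.37% were gained, and over all with at most 3 in PRDX1MT 2.8%. Over the protein-coding genes with at most 3 reads in WT, 155 of 8001 were gained (1.94%), and against PRDX1MT 311 of 8463 (3.67%). A count of 0 among 6 lies near these shares and is not a result particular to the muscle genes. With clone 5 considered alone, Myf5 met the rule, as did 3.86% of protein-coding genes against WT and 6.3% against PRDX1MT. With clone 1 considered alone none of the 6 met it, where 6.14% of protein-coding genes did against WT and 8.21% against PRDX1MT.

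**Figure D2:**
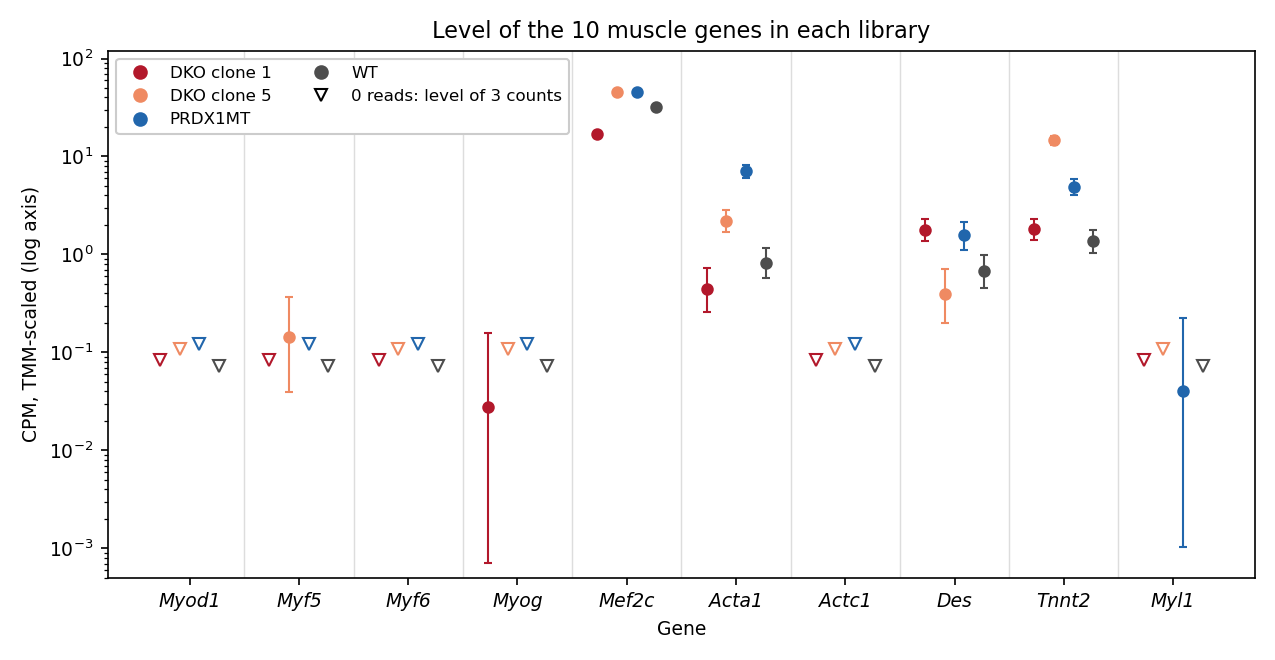
TMM-scaled CPM on a log axis (vertical) for each of the 10 genes (horizontal) in DKO clone 1, DKO clone 5, PRDX1MT and WT. Points are single libraries with 95% Poisson intervals of the counting, and open triangles mark 0 reads at the level that 3 counts would give. Mef2c, Acta1, Des and Tnnt2 have reads in every library, and the other 6 genes lie at or near the limit.

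The other 4 genes, Mef2c, Acta1, Des and Tnnt2, had more than 3 reads in each library and were the ones with enough reads to be tested. None of the 4 differed between DKO and WT or between DKO and PRDX1MT by edgeR's quasi-likelihood test at a Benjamini-Hochberg adjusted p under 0.05 over 19446 genes. In DKO against WT, 0.0154% of those genes were called higher and 0.453% lower, and in DKO against PRDX1MT 0.0103% and 0.195%. DESeq2 called 0 of the 4 in either comparison. At an unadjusted p under 0.05, edgeR had 0 of them against WT and 1 (Acta1) against PRDX1MT, where 5.08% and 4.69% of all genes tested did. DESeq2 had 1 in each, Tnnt2 against WT and Acta1 against PRDX1MT, where 837 and 776 of the 19446 genes did. The spread in this fit came from the DKO clones alone, n = 2, which the labels do not describe as independent experiments, so p values measure the spread between these 2 clones. The values of the clones lay on opposite sides of WT for 3 of the 4 genes (Mef2c, Acta1 and Des). Beyond counting error this held for Mef2c only. Clone 1 stood at 0.543 of WT for Acta1 (0.28 to 1.01) and clone 5 at 0.587 of WT for Des (0.264 to 1.22).

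Mef2c (ENSMUSG00000005583, chromosome 13, 83504034 to 83667080, plus strand), a MADS-box factor that works with the determination factors and is also used in heart, bone, endothelium and neurons, was the most abundant of the 10. It had 602 reads in DKO clone 1, 1248 in DKO clone 5, 1132 in PRDX1MT and 1312 in WT. These were 16.9 CPM (15.6 to 18.3), 45.3 CPM (42.8 to 47.9), 45.5 CPM (42.9 to 48.2) and 31.9 CPM (30.2 to 33.7). Clone 1 was the lowest library, clone 5 and PRDX1MT overlapped in their intervals, and WT lay between. The DKO mean was 31.1 ± 20.1 CPM (SD, n = 2), with a log2 ratio of -0.04 to WT (SE 0.62, adjusted p = 1.0 by edgeR) and of -0.55 to PRDX1MT (SE 0.61, adjusted p = 1.0 by edgeR). Against WT and PRDX1MT joined, the log2 ratio was 0.23 without clone 1 and -1.18 without clone 5. Mef2c was thus transcribed in all 4 libraries, beside determination factors with 0 to 4 reads.

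Acta1 (ENSMUSG00000031972, chromosome 8, 123891769 to 123894751, minus strand), the alpha-actin of adult skeletal muscle, was highest in PRDX1MT and not in DKO. It had 16 reads in DKO clone 1, 61 in DKO clone 5, 175 in PRDX1MT and 34 in WT. The levels were 0.449 CPM (0.256 to 0.729), 2.22 CPM (1.69 to 2.85), 7.03 CPM (6.03 to 8.16) and 0.826 CPM (0.572 to 1.15) in that order. The intervals of clone 1 and WT overlapped, clone 5 lay above both, and PRDX1MT above all others. DKO averaged 1.33 ± 1.25 CPM (SD, n = 2), with a log2 ratio of 0.68 to WT (SE 1.02, adjusted p = 1.0 by edgeR) and of -2.41 to PRDX1MT (SE 0.93, adjusted p = 0.968 by edgeR). Against WT and PRDX1MT joined, it was -0.82 without clone 1 and -3.09 without clone 5. PRDX1MT stood 8.51-fold above WT (5.87 to 12.7), a comparison of 2 libraries with no replicate check.

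Acta2, the smooth muscle actin and one of the closest relatives of Acta1, ordered the libraries in the same way, with 637 CPM in DKO clone 1, 1310 CPM in DKO clone 5, 2250 CPM in PRDX1MT and 687 CPM in WT. Acta1 reads were 0.0704%, 0.170%, 0.313% and 0.120% of Acta2 reads in those libraries. No 50-base stretch of Acta1 occurs exactly in Acta2, Actg2 or Actc1 transcripts, while 28 of 1534 occur in Actb and 10 in Actg1. The 14 smooth muscle genes listed summed to 1810 CPM in DKO clone 1, 2290 CPM in DKO clone 5, 3500 CPM in PRDX1MT and 1510 CPM in WT, with 13 to 14 of 14 above 3 reads. Acta2 is among the 14, so these sums are not independent of it. The part of the smooth muscle genes in the Acta1 values was not tested. In bulk RNA, fewer cells of a kind and less RNA per cell cannot be told apart.

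Tnnt2 (ENSMUSG00000026414, chromosome 1, 135836354 to 135852260, plus strand), the troponin T of heart that embryonic skeletal muscle also makes, was high in DKO clone 5 alone among the clones. It had 65 reads in DKO clone 1, 401 in DKO clone 5, 122 in PRDX1MT and 56 in WT. This gave 1.82 CPM (1.41 to 2.32), 14.6 CPM (13.2 to 16.1), 4.90 CPM (4.07 to 5.86) and 1.36 CPM (1.03 to 1.77). Clone 5 lay above every other library, PRDX1MT above clone 1 and WT, and the intervals of clone 1 and WT overlapped. The DKO mean of 8.19 ± 9.01 CPM (SD, n = 2) had a log2 ratio of 2.58 to WT (SE 1.23, adjusted p = 1.0 by edgeR), and against WT and PRDX1MT joined it was 2.23 without clone 1 and -0.75 without clone 5. Against PRDX1MT the log2 ratio was 0.74 (SE 1.10, adjusted p = 1.0 by edgeR).

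Of the 14 cardiac genes listed, 4 had more than 3 reads in each DKO clone and 5 in PRDX1MT and in WT, and their sum was 26.5 CPM in DKO clone 1, 23.0 CPM in DKO clone 5, 31.7 CPM in PRDX1MT and 27.5 CPM in WT. The cardiac regulators Tbx5, Isl1 and Hand2 had 0 reads in all 4 libraries, and Nkx2-5 had 2 in clone 1 and 0 in the others. Most of each sum was Gata4, a cardiac regulator also used in other tissues, with 23.9 CPM in DKO clone 1, 19.9 CPM in DKO clone 5, 20.3 CPM in PRDX1MT and 17.2 CPM in WT. The part of cardiac genes in the Tnnt2 values was not tested.

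Des (ENSMUSG00000026208, chromosome 1, 75360329 to 75368579, plus strand), the intermediate filament of muscle cells of all kinds, was low throughout. It had 64 reads in DKO clone 1, 11 in DKO clone 5, 39 in PRDX1MT and 28 in WT, or 1.79 CPM (1.38 to 2.29), 0.399 CPM (0.199 to 0.715), 1.57 CPM (1.11 to 2.14) and 0.680 CPM (0.452 to 0.983). Clone 1 and PRDX1MT overlapped, as did clone 5 and WT, and the first pair lay above the second. DKO averaged 1.10 ± 0.986 CPM (SD, n = 2), with log2 ratios of 0.70 to WT (SE 1.07) and -0.50 to PRDX1MT (SE 1.02), both at adjusted p = 1.0 by edgeR. Against WT and PRDX1MT joined, the log2 ratio was -1.47 without clone 1 and 0.70 without clone 5. On the opposite strand Gm15179 covers 5.86% of the exon bases of Des, and without a stated strand setting reads of the pair cannot be told apart there.

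**Figure D3:**
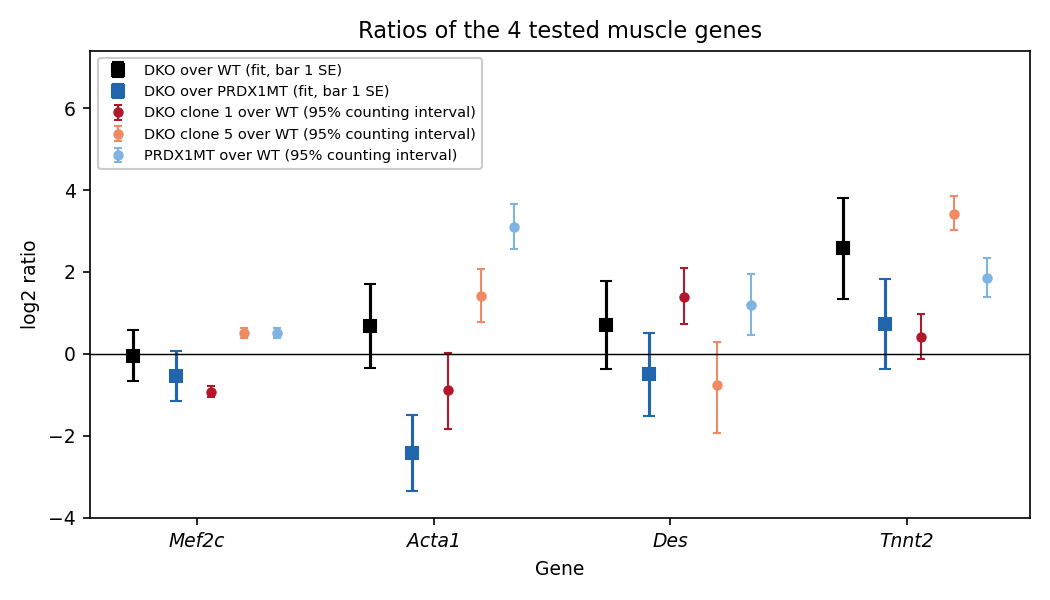
Log2 ratios (vertical axis) of Mef2c, Acta1, Des and Tnnt2. Squares are the fitted ratios of DKO to WT and of DKO to PRDX1MT with bars of 1 SE, and circles are single libraries over WT with 95% counting intervals. The clones lie on opposite sides of 0 for Mef2c, Acta1 and Des, and both above 0 for Tnnt2, where clone 5 is at 3.42 and clone 1 at 0.42. The intervals of clone 1 for Acta1 and Tnnt2 and of clone 5 for Des include 0.

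Single libraries were also set side by side with a rule of size, met by a gene that had at least 100 reads in both libraries together, a ratio of at least 2 and a counting interval that excluded equality. In DKO clone 1 against WT, 0 of 2 genes with enough reads met it (8.53% of all genes with enough reads were higher and 7.72% lower). In DKO clone 5 against WT, Tnnt2 was 10.7-fold higher (8.08 to 14.4) and Mef2c was not past the rule (1.42-fold, 1.31 to 1.54), where 5.8% of genes were higher and 8.74% lower. In PRDX1MT against WT, Acta1 and Tnnt2 (3.60-fold, 2.61 to 5.04) were higher and Mef2c was not past the rule (1.43-fold, 1.32 to 1.55), against 7.45% of genes higher and 7.73% lower. Between the clones, Tnnt2 was 7.99-fold lower in clone 1 than in clone 5 (6.14 to 10.6) and Mef2c 2.69-fold lower (2.43 to 2.96), where 10.9% of genes were higher and 7.75% lower. Des (64 and 11 reads, 4.49-fold, 2.35 to 9.45) and Acta1 (16 and 61 reads, 0.203-fold, 0.109 to 0.356) differed between the clones too but had under 100 reads.

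Per kilobase of annotated exon, the order of the 4 genes with reads differed between libraries. In WT the order was Mef2c (2.03 CPM per kilobase), Acta1 (0.538), Des (0.181) and Tnnt2 (0.176), and the last pair did not differ beyond counting error. In DKO clone 1 it was Mef2c (1.07), Des (0.478), Acta1 (0.292) and Tnnt2 (0.235), in DKO clone 5 Mef2c (2.88), Tnnt2 (1.88), Acta1 (1.44) and Des (0.106), and in PRDX1MT Acta1 (4.58), Mef2c (2.90), Tnnt2 (0.633) and Des (0.418). Counting intervals overlapped for Acta1 with Des and with Tnnt2 in clone 1, for Tnnt2 with Acta1 in clone 5, and for Tnnt2 with Des in PRDX1MT. The ranks within those pairs are not resolved. The highest of these 16 levels, that of Acta1 in PRDX1MT, lay above 69.6% of protein-coding genes, and the lowest, that of Des in clone 5, above 43.4%. Exon lengths are unions over all annotated transcripts, 15715 bp for Mef2c and 7752 bp for Tnnt2, and so understate the per-kilobase level of genes with many variants.

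Profiles over the 4 libraries were compared by the Euclidean distance between centred log2 CPM values, with 2 counts added to each, among 11924 protein-coding genes with at least 100 reads. Closest to Mef2c were Poc1a (distance 0.129) and Tmem190 (0.164), to Des Dpep1 (0.139) and Trp53inp2 (0.151), to Tnnt2 Pmp2 (0.370) and Gm21738 (0.467), and to Acta1 Gpr62 (0.389) and Ccdc163 (0.749). None of these is another of the 10 genes. Ccdc163, which lies beyond Prdx1 and Mmachc on chromosome 4, had 2.78 CPM in DKO clone 1, 7.92 CPM in DKO clone 5, 44.8 CPM in PRDX1MT and 5.91 CPM in WT. Points in such a profile are 4 libraries, so a short distance is a description.

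No gene of the wider muscle programme passed the edgeR test. In 6 lists that hold upstream regulators, fusion, sarcomere, calcium handling, synapse and metabolism genes, 92 of 157 genes were tested and 0 passed in DKO against WT, higher or lower, by edgeR with Benjamini-Hochberg adjustment. At an unadjusted p under 0.05 edgeR had 13 of them (14.1%), where 5.08% of all genes tested did (988 of 19446), and DESeq2 called 1 (Dmd). Against PRDX1MT edgeR called 0 and had 7 at an unadjusted p under 0.05 (7.61%), where 4.69% of all genes tested did (912 of 19446), and DESeq2 called 1 (Itga9). The median log2 ratio was 0.33 against WT and -0.12 against PRDX1MT, beside 0.03 and 0.04 over all genes tested. Of 57 listed genes with at most 3 reads in WT, 1 was gained in both clones (1.75%), beside 1.94% of protein-coding genes with at most 3 reads in WT. Of the 157 listed genes, 23 had 0 reads in all 4 libraries, a state shared by 23.7% of protein-coding genes.

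**Figure D4:**
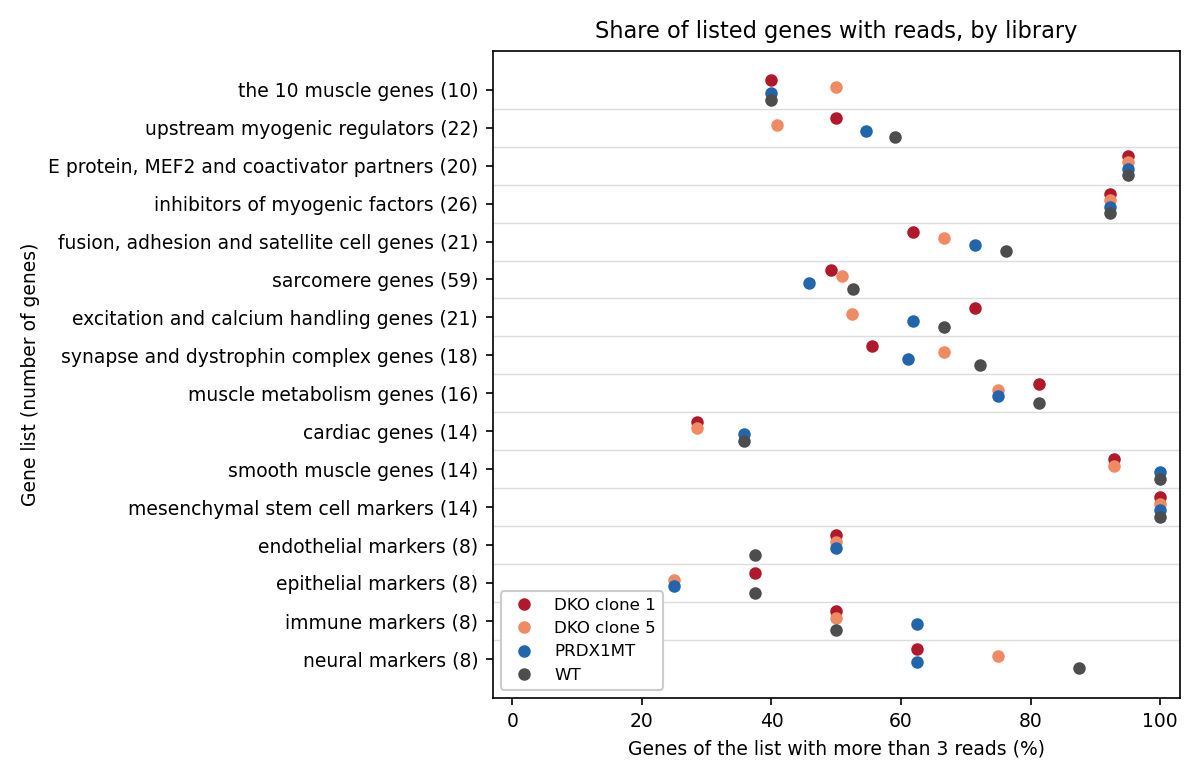
Share of genes with more than 3 reads (horizontal axis, percent) in each fixed gene list (vertical axis, number of genes in parentheses, the 10 muscle genes counted only in their own row), for DKO clone 1, DKO clone 5, PRDX1MT and WT. Partners and inhibitors of the determination factors are nearly all present in every library, with 19 of 20 and 24 of 26 genes, whereas 27 to 31 of 59 sarcomere genes have reads.

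Partners of the determination factors were present. Of 20 genes for E proteins, MEF2 proteins and coactivators, 19 had more than 3 reads in every library, and 0 of 19 tested passed in either comparison by edgeR or DESeq2, with 0 at an unadjusted p under 0.05 by either tool (median log2 ratio to WT 0.08). Tcf3, which encodes the E proteins E12 and E47, the dimer partners of MyoD, had 192 ± 89.2 CPM in DKO (SD, n = 2), 180 CPM in PRDX1MT and 193 CPM in WT. Srf, the factor that binds CArG boxes, had 116 ± 39.8 CPM in DKO, 107 CPM in PRDX1MT and 60.6 CPM in WT (log2 ratio to WT 0.93, SE 0.52, adjusted p = 1.0 by edgeR). Smarca4, the chromatin remodeller Brg1, had 205 ± 15.6 CPM in DKO, 222 CPM in PRDX1MT and 218 CPM in WT.

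Inhibitors of the determination factors were also present, 24 of 26 with more than 3 reads in each library. None of the 24 tested passed in DKO against WT by edgeR or DESeq2. By edgeR 3 of them had an unadjusted p under 0.05, where 5.08% of all genes tested did. The 24 had a median log2 ratio of 0.50, beside 0.03 over all genes tested, and 18 were above 0 and 6 below. Id1 and Id3, which bind E proteins and keep them from DNA, had 299 ± 41.4 and 420 ± 37.6 CPM in DKO (SD, n = 2), 362 and 327 CPM in PRDX1MT, and 119 and 180 CPM in WT. Their log2 ratios to WT were 1.33 (SE 0.52, adjusted p = 0.862 by edgeR) and 1.22 (SE 0.52, adjusted p = 0.973 by edgeR), and both clones and PRDX1MT lay above WT. Hey1, a Notch target that represses muscle genes, had 9.76 ± 2.66 CPM in DKO, 50.4 CPM in PRDX1MT and 2.28 CPM in WT (log2 ratio to WT 2.09, SE 0.57, adjusted p = 0.378 by edgeR). Against PRDX1MT its log2 ratio was -2.37 (SE 0.49, adjusted p = 0.205 by edgeR), and DESeq2 called it.

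Upstream of the determination factors, the coactivator gene Eya4 had many reads and the Pax genes few. Eya4 had 135 ± 51.6 CPM in DKO (SD, n = 2), 119 CPM in PRDX1MT and 195 CPM in WT (log2 ratio to WT -0.53, SE 0.51, adjusted p = 1.0 by edgeR). Pax3 had 10 reads in DKO clone 1, 0 in DKO clone 5, 5 in PRDX1MT and 58 in WT (adjusted p = 0.967 by edgeR), and Pax7, the factor of satellite cells, had 2 in clone 1 and 0 in the others. Barx2 had 0 reads in both clones, 0 in PRDX1MT and 38 in WT, 19.5-fold lower in DKO than in WT taking 3 counts over both clones, with adjusted p = 0.328 by edgeR. Of the 12 genes of this list tested, 0 passed (3 of 12 at an unadjusted p under 0.05 by edgeR, against 5.08% of all genes tested, and 0 called by DESeq2), and the median log2 ratio to WT was -0.46.

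Sarcomere genes ranged from 0 reads to 21791 (Tpm1 in DKO clone 1). Of 59 listed, 21 had at most 3 reads in every library, as did 32.6% of protein-coding genes. Of the 28 tested, 0 passed against WT or PRDX1MT by edgeR or DESeq2. At an unadjusted p under 0.05 edgeR had 4 of the 28 against WT and 3 against PRDX1MT, where 5.08% and 4.69% of all genes tested did. Highest per kilobase in DKO were the tropomyosin genes Tpm1, Tpm3 and Tpm2, which non-muscle and smooth muscle cells use too, with 504 ± 152, 222 ± 43.3 and 47.4 ± 43.2 CPM in DKO (SD, n = 2), 757, 229 and 77.1 CPM in PRDX1MT, and 465, 192 and 52.2 CPM in WT. Myom1, which encodes the M-line protein myomesin, had 5.80 ± 0.428 CPM in DKO, 4.42 CPM in PRDX1MT and 1.24 CPM in WT (log2 ratio to WT 2.22, SE 0.72, adjusted p = 0.606 by edgeR). Ldb3, a Z-disc protein gene, had 20.6 ± 7.60, 8.32 and 6.88 CPM (log2 ratio to WT 1.58, SE 0.60, adjusted p = 0.845 by edgeR), and Tnni3, the troponin I of heart, 0.167 ± 0.0816, 1.33 and 1.24 CPM (log2 ratio to WT -2.84, SE 0.93, adjusted p = 0.624 by edgeR). Xirp1, an actin-binding protein gene of striated muscle, was the gene gained, with 5 reads in DKO clone 1, 4 in DKO clone 5, 3 in PRDX1MT and 0 in WT. With both clones pooled it stood 1.95-fold above WT set at 3 counts. That fold leaves out the counting error of the few DKO reads and is not a lower limit. Ttn, the gene of the giant sarcomere protein titin, had 272 reads in DKO clone 1, 158 in DKO clone 5, 266 in PRDX1MT and 127 in WT. Neb, the nebulin gene, had 35, 181, 100 and 44 reads in those libraries, and Tnni1, the troponin I of slow muscle, 204, 241, 208 and 157. Among the myosin heavy chain genes listed, Myh1, Myh2, Myh4 and Myh8 had 0 reads in every library, and the others had some. Myh3 had 1 read in DKO clone 1, 0 in DKO clone 5, 5 in PRDX1MT and 0 in WT. In the same order Myh7 had 1, 2, 4 and 0, Myh13 0, 0, 1 and 0, Myh6 6, 13, 0 and 4, and Myh7b 33, 90, 74 and 118.

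In the fusion list, Mymk, which encodes the fusion protein myomaker, had 0 reads in all 4 libraries, and Mymx, its partner, 1 read in DKO clone 1 and 0 in the others. Fst, which encodes the myostatin antagonist follistatin, had 41.0 ± 7.75 CPM in DKO (SD, n = 2), 79.1 CPM in PRDX1MT and 12.7 CPM in WT (log2 ratio to WT 1.69, SE 0.49, adjusted p = 0.461 by edgeR). In the calcium handling list, Jph2, a junctophilin gene, had 28 reads in DKO clone 1, 2 in DKO clone 5, 0 in PRDX1MT and 0 in WT (adjusted p = 0.967 by edgeR). With both clones pooled it stood 6.51-fold above WT set at 3 counts, which leaves out the counting error of the DKO reads. That fold comes from clone 1, as the 2 reads of clone 5 are under 3 counts. Kcnj2, a potassium channel gene, had 1.57 CPM in clone 1, 53.4 CPM in clone 5, 14.3 CPM in PRDX1MT and 9.65 CPM in WT, so the clones again lay on opposite sides of WT. In the dystrophin complex list, Dmd, the dystrophin gene, had 0 reads in both clones, 2 in PRDX1MT and 135 in WT. That is 69.1-fold lower in DKO than in WT taking 3 counts over both clones (adjusted p = 0.0601 by edgeR, called by DESeq2). The metabolism list had 12 of 16 genes tested, 0 of them called by edgeR or DESeq2 and 0 at an unadjusted p under 0.05 against WT by either tool, and Ckm, the muscle creatine kinase, had 0 reads in DKO clone 1, 1 in DKO clone 5, 2 in PRDX1MT and 2 in WT.

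Smooth muscle genes differed from the skeletal lists in having reads in nearly every case, with 14 of 14 tested. Myl9, a light chain of smooth and non-muscle myosin, fell to 8.48 ± 0.647 CPM in DKO (SD, n = 2), against 94.3 CPM in PRDX1MT (adjusted p = 0.0410 by edgeR), and stood at 41.3 CPM in WT (adjusted p = 0.108 by edgeR). Against PRDX1MT 4 of the 14 had an unadjusted p under 0.05 by edgeR, where 4.69% of all genes tested did, and DESeq2 called 2 (Actg2 and Myl9). Myl9 was the 1 gene of this list that edgeR called against PRDX1MT. That call is lost with a filter of 1 CPM in 2 libraries, which left 0 genes called by edgeR (530 at an unadjusted p under 0.05). Against WT edgeR called 0, with 2 at an unadjusted p under 0.05 (5.08% of all genes tested), and DESeq2 called 1 (Myl9). The list had a median log2 ratio of 0.47 to WT and -0.60 to PRDX1MT, beside 0.03 and 0.04 over all genes tested. Of the cardiac genes 5 of 14 were tested and 0 passed in either comparison by edgeR or DESeq2. Against WT 2 of the 5 had an unadjusted p under 0.05 by edgeR, where 5.08% of all genes tested did. Gata6 stood at 1.93 ± 0.397 CPM in DKO, 9.69 CPM in PRDX1MT and 8.36 CPM in WT (log2 ratio to WT -2.11, SE 0.60, adjusted p = 0.439 by edgeR). Tbx20 had 0 reads in both clones, 0 in PRDX1MT and 45 in WT, 23.0-fold lower in DKO than in WT taking 3 counts over both clones (adjusted p = 0.263 by edgeR).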

How the data were processed

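Bulk RNA was sequenced in 4 libraries, made per the labels' protocols with a stranded total RNA kit after ribosomal RNA removal. STAR 2.6.1d and the mm10 build are named, per the submitters' processing notes. The sources used here do not give how genes were counted, nor the annotation or strand option. The authors' deposited values are whole-number counts per Ensembl gene, not normalized. Of 54532 identifiers, 54495 matched GENCODE M21 (GRCm38), which gave symbols, coordinates and exon lengths. Groups came from the titles: DKO (2 clones), PRDX1MT (1 library) and WT (1 library).

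All 4 libraries were fitted together in R 4.3.3 with edgeR 4.0.16 (quasi-likelihood, TMM scaling, filterByExpr, Benjamini-Hochberg adjustment over 19446 genes), with 1 residual degree of freedom and a prior of 6.54. Of the 10 genes, 4 passed the filter. SE is the log2 ratio over the root of F. Single-library intervals are exact Poisson or conditional binomial at 95%. Reads carry no molecular identifiers and may be PCR copies, so intervals and limits cover counting error only. A fold against 0 reads uses 3 counts for the 0 and leaves out the counting error of the other side, so it is not a lower limit. Sequences are from RefSeq (GRCm38.p6). Fits and intervals were run on simulated data. The counts simulated for the fit had a lower dispersion than the common value of 0.187 estimated here, so they do not give its error rates in these data.

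The 10 genes and the lists were chosen with earlier results of these data known. Named besides the 10 were, per list, genes that passed or were gained, the 3 with the smallest p against WT and, for muscle lists, the 3 highest per kilobase in DKO, with the 2 nearest profiles per gene with at least 100 reads. Some genes that this rule names are not reported here. Chosen after their values were seen were Acta2 and Actg2 beside Acta1, and Itga9 (the 1 listed muscle gene DESeq2 called against PRDX1MT). The same holds for Ttn, Neb, Tnni1, Myh3, Myh6, Myh7, Myh7b and Myh13. It also holds for the markers at 0 to 2 reads Tbx5, Isl1, Hand2, Nkx2-5, Pax7, Mymk, Mymx, Ckm, Myh1, Myh2, Myh4 and Myh8. Alternatives were DESeq2 1.42.0, total-count scaling, other filters, fits of 2 groups alone, omission of either clone, structural RNA genes removed, and other read minimums and fold sizes.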

Additional observations from a re-analysis of the deposited data

How the results depend on the processing

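None of the 4 tested genes was called in either comparison by the alternatives that kept both clones. The lowest adjusted p was 0.0667 (Tnnt2 against WT with no filter on low counts, edgeR). Of the other 6 genes, only Myf5, Myog and Myl1 entered a fit, the one with no filter, and were not called. Myod1, Myf6 and Actc1, at 0 reads in every library, could not be called. The log2 ratios of the 4 tested genes kept their direction in all 48 refits that kept both clones. Fits with 1 clone left out set the other clone against WT and PRDX1MT joined, and assumed that it varies as those do. Each ratio was therefore counted in both comparisons, and 8 of these 16 signs differed from the main fit. Such a change mixes the omitted clone with the changed reference. For Acta1, clone 5 alone stood 2.68-fold above WT (1.73 to 4.21), yet below WT and PRDX1MT joined. The ratios with a clone left out, equal for both comparisons, ranged from -3.09 to -0.82 for Acta1, -1.47 to 0.70 for Des, -1.18 to 0.23 for Mef2c and -0.75 to 2.23 for Tnnt2. No paired analysis was possible, as WT and PRDX1MT had 1 library each and the titles pair no libraries.

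Counts of called genes over the whole table moved more, and the cause was not tested. Against WT, 91 were called in the main analysis, 262 by DESeq2, 535 with no filter, and 0 at 1 CPM in 2 libraries by edgeR (490 at an unadjusted p under 0.05). Against PRDX1MT they were 40, then 215 by DESeq2, 404 with no filter, 0 at 1 CPM in 2 libraries by edgeR (530 at an unadjusted p under 0.05), 11 with only the groups compared, 14 with structural RNA genes removed, 7 under total-count scaling, and 21 to 92 with a clone left out. Total-count scaling moved the median log2 ratio of all genes to -0.09 against WT and 0.20 against PRDX1MT.

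The count of the 10 genes gained was 0 to 1 with a clone left out, in both comparisons (Myf5, from clone 5), and 0 under the other read minimums and on the CPM scale. By the rule of size, clone 1 against WT gave 0 genes, 1 with a minimum of 20 reads (Des) and 1 under total-count scaling (Mef2c, lower). Clone 5 against WT gave 1, and 2 at 20 reads. PRDX1MT against WT gave 2, then 3 at 20 reads and 1 at 4-fold. Clone 1 against clone 5 gave 2, then 4 at 20 reads and 1 at 4-fold. Depth limits what a 0 means: a gene with 0 reads may still stand at up to 0.0729 to 0.121 CPM, depending on the library.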
